A study of Mus musculus with 703 samples.

Results

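The integrated stress response genes described here were 8 genes of the mouse gastrocnemius, the large muscle of the calf: Atf4, Ddit3, Asns, Trib3, Psat1, Phgdh, Sesn2 and Hspa5. They were chosen by gene symbol, with earlier results of these data known, and all 8 were found among the 19088 genes of the expression table. Bulk RNA sequencing had been done on muscle libraries from 20 CC-RIX strains, which are first-generation crosses between pairs of Collaborative Cross inbred lines, themselves bred from 8 founder strains. Each strain is written here as its 2 parental lines, for example (CC043/GeniUncJ x CC042/GeniUncJ)F1. Females and males of every strain were fed a diet labelled 10% fat + fiber or one labelled 44% fat + fiber from 6 weeks of age. Of the untreated libraries, 236 were from females and 233 from males, and 235 of them were on 44% fat and the remainder on 10% fat. Of the libraries from metformin-treated animals, which drank water with 5 mg/mL of this glucose-lowering drug from 7 months of age, 57 were from females and 59 from males on 10% fat, and 59 were from females and 59 from males on 44% fat. All metformin animals belonged to the cohort collected at 12 months of age, whereas untreated animals could belong to that cohort or to the one collected at 6 months, and the labels gave no age for a library, so the drug and age cannot be told apart.

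The integrated stress response is a pathway by which a cell slows translation when it is short of amino acids, has misfolded protein in its endoplasmic reticulum, or meets other damage. Kinases that sense these states phosphorylate the translation factor eIF2, most protein synthesis falls, and the mRNA of the transcription factor ATF4 is translated more. ATF4 then switches on genes that make and import amino acids, together with genes that limit or end the response. In skeletal muscle the pathway is best known for its activity when mitochondria fail. ATF4 is controlled largely at translation, so the level of its mRNA is only part of its regulation. Of the members, Atf4 and Ddit3 (the protein is also called CHOP) are the transcription factors; Asns, which makes asparagine, and Phgdh and Psat1, which catalyse early steps of serine synthesis, are the amino acid enzymes; Trib3 and Sesn2 are feedback and nutrient-signalling genes; and Hspa5 encodes BiP, the main chaperone of the endoplasmic reticulum.

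The promoters of 3 members are shown because each held a match to 1 of 2 motifs of stress responses. The first motif, TGATGNAA, is the core of the element that ATF4 binds together with a C/EBP-family partner. The second is the endoplasmic reticulum stress response element, which reads CCAAT, then 9 bases of any kind, then CCACG, and is bound when ATF6 is active. Both were searched on both strands, and they do not overlap in these windows. Sequences are from RefSeq on GRCm38.p6, 5′ to 3′ on the strand of the gene, with the match in capitals. The Hspa5 window lies on chr2:34771940-34772089, forward strand, the Asns window on chr6:7693210-7693359, reverse strand, and the Trib3 window on chr2:152344028-152344057, reverse strand, where the motif reads on the opposite strand to the gene.
Hspa5: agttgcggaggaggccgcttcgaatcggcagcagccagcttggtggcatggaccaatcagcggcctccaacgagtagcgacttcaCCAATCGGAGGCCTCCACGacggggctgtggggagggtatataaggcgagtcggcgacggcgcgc
Asns: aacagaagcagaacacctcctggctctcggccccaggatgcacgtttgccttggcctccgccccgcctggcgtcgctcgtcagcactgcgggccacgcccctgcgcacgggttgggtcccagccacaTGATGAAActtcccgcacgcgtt
Trib3: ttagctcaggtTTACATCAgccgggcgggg
The Hspa5 match lay 65 to 47 bases before the RefSeq start, the Asns match 23 to 16 bases before it and the Trib3 match 14 to 21 bases after it. The 8 members had 9 promoter windows in the table (Psat1 had 2), running from 250 bases before to 50 after each start. TGATGNAA occurred in 2 of the 9 (22.2%) and in 1304 of 32851 promoters of the same length (3.97%). The endoplasmic reticulum element occurred in 1 of the 9 (11.1%) and in 39 of 32851 (0.119%). These are matches of letters, and no binding was measured. Motifs and members were both picked as parts of stress responses, so the shares are a description and no test of enrichment.

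The libraries held between 27368536 and 96100529 counts (median 47876086). Levels are given as CPM, the counts of a gene scaled to a common library total. Summed markers of muscle fibres made up 72010 to 154900 CPM with all 8 markers present, so the tissue label held in every library. The markers of other cells were low beside them: 60.3 to 1940 CPM for 6 adipocyte genes, 124 to 3215 CPM for 4 fibroblast genes and 0 to 6813 CPM (median 2.40) for 6 hepatocyte genes. In bulk tissue fewer cells of one type and less RNA per cell cannot be told apart. In 15 libraries Xist, the only sex-linked gene checked, went against the sex label, and 4 libraries were closest to another strain. Results were also computed without these 19 libraries. The sequencing identifiers fell into a lower range of 544 libraries and an upper range of 159, which held 400 and 69 untreated libraries, and this range was a term in the reported fits.

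Levels of the 8 genes spanned a wide range. Levels are compared between genes only after division by the summed exon length in kilobases. On that scale Atf4 (ENSMUSG00000042406, chr15:80255184-80257540) had the highest median, 37.5 CPM per kilobase over all libraries, followed by Hspa5 (ENSMUSG00000026864, chr2:34771970-34777547) at 35.8. Ddit3 (ENSMUSG00000025408, chr10:127290774-127296288) followed at 3.62 CPM per kilobase. The amino acid enzymes were lower, with Phgdh (ENSMUSG00000053398, chr3:98313170-98339990) at 0.879, Asns (ENSMUSG00000029752, chr6:7675169-7693254) at 0.721 and Psat1 (ENSMUSG00000024640, chr19:15904678-15947337) at 0.400 CPM per kilobase. Sesn2 (ENSMUSG00000028893, chr4:132492032-132510501) stood at 0.713 and Trib3 (ENSMUSG00000032715, chr2:152337422-152344032) was lowest at 0.347. Positions are for GRCm38, the build named in the submitters' processing notes, as the authors' annotation gave them. Trib3 rested on the fewest reads, 2 to 163 counts a library with a median of 36, and Hspa5 on the most, 2787 to 20232 with a median of 7334.

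The spread between libraries also differed. The highest Psat1 library was 53.4 times the lowest, and the same ratio was 41.33 for Asns, 41.01 for Phgdh and 52.2 for the sparse Trib3, whereas it was 3.34 for Atf4, 5.01 for Hspa5, 5.77 for Sesn2 and 6.06 for Ddit3. A few libraries made the upper ends. The highest values of Psat1 (19.1 CPM), Phgdh (21.9 CPM) and Sesn2 (6.99 CPM) all came from one metformin-treated male of (CC002/UncJ x CC043/GeniUncJ)F1 on 10% fat, where Asns was 10.3 CPM. That library also had the highest adipocyte marker sum of all, 1940 CPM against a median of 183 CPM. The highest values of Asns (16.02 CPM) and Trib3 (2.51 CPM) came from one untreated female of (CC042/GeniUncJ x CC040/TauUncJ)F1 on 10% fat, where Psat1 was 8.55 CPM and the adipocyte sum was 262 CPM. The part of fat tissue in these values was not tested.

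**Figure D1:**
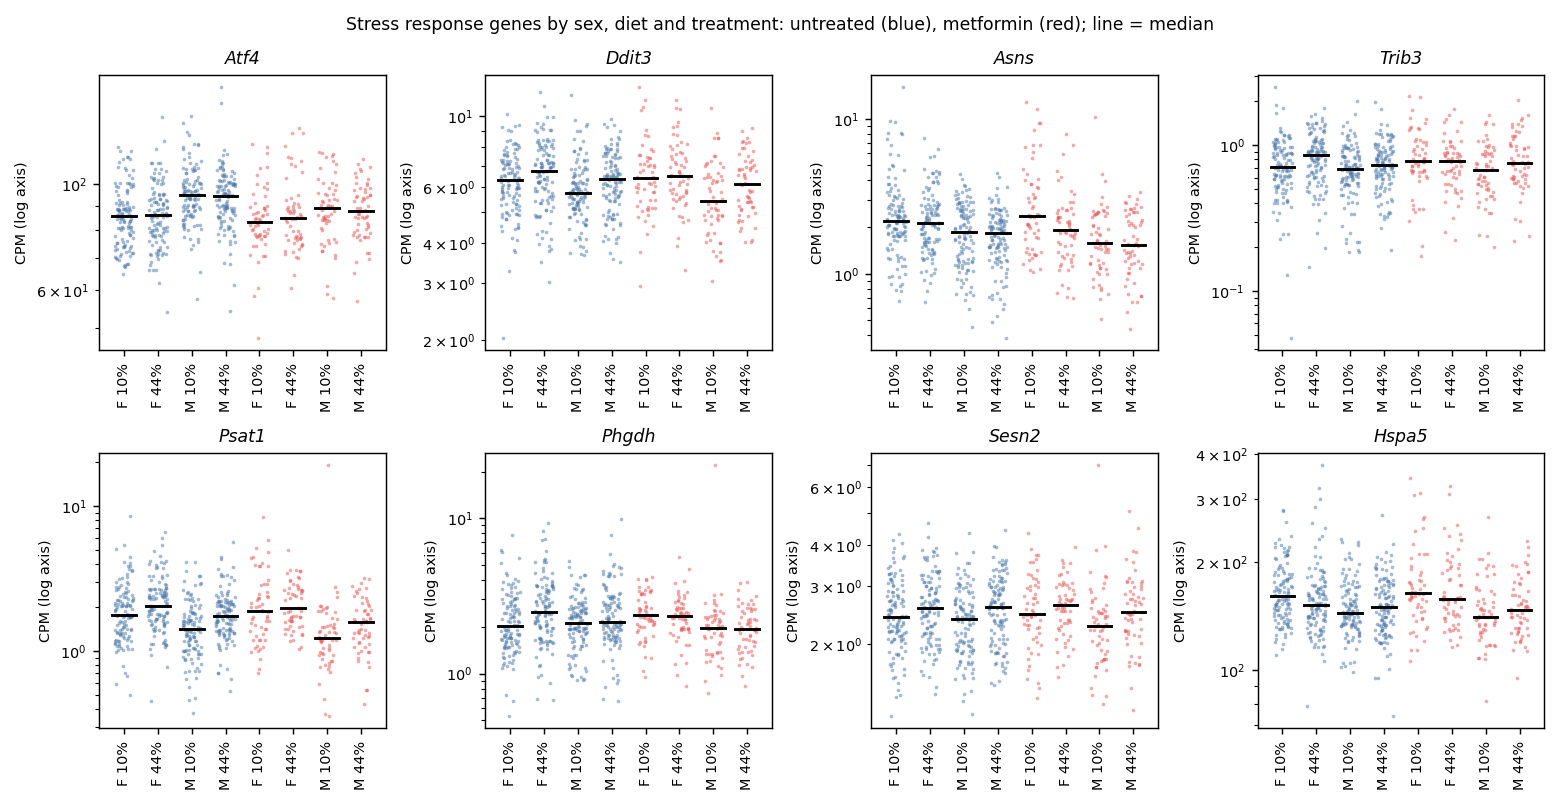
CPM of each of the 8 genes (log axis) in the 8 groups of sex, diet and treatment, 1 point a library (untreated blue, metformin red), with the group median as a line. The groups overlap in every panel. The upper ends of Asns are higher in the female groups on 10% fat (12.8 and 16.02 CPM) than in the 4 male groups (3.35 to 10.3 CPM). For Psat1 and Phgdh 1 metformin library stands far above the rest.

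The first comparison asked whether the higher-fat diet changed these genes in untreated animals. By edgeR's quasi-likelihood test with strain, sex and identifier range as terms, 5 of the 8 genes were higher on 44% fat at an adjusted p under 0.05 and none was lower. Across the 16384 genes tested, 18.4% were called, 9.56% higher and 8.83% lower. The median log2 difference of the 8 genes was 0.10, against 0.00 for all genes tested (-0.00239). All 5 differences were small beside the spread between animals, and the ranges of the diets overlapped for every gene.

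The serine enzymes differed most. Psat1, the transaminase of serine synthesis, ran from 0.375 CPM through a median of 1.595 to 8.55 in the libraries on 10% fat and from 0.454 through 1.90 to 6.61 in the 235 on 44% fat. It was 17.2% higher on 44% fat by the fit (log2 difference 0.23 ± 0.05 SE, adjusted p = 0.000103), and 160 of the 235 libraries (68.1%) lay above the median of the 10% fat libraries. Phgdh, the dehydrogenase that commits carbon to serine, ran from 0.535 through 2.06 to 7.75 CPM on 10% fat and from 0.667 through 2.35 to 9.84 CPM on 44% fat. Its log2 difference was 0.21 ± 0.05 (16.03% higher, adjusted p = 0.000354), with 61.7% of the 44% fat libraries above the 10% fat median. Mean log2 CPM was higher on 44% fat within 18 of 20 strains for Psat1 and within 14 of 20 for Phgdh.

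Asns, the remaining amino acid enzyme, was not called. It ran from 0.455 through 2.05 to 16.02 CPM on 10% fat and from 0.388 through 1.97 to 7.56 CPM on 44% fat. Its log2 difference was -0.10 ± 0.05 (adjusted p = 0.123), with a mean lower on 44% fat within 12 of 20 strains. Its 95% interval before adjustment was -0.19 to -0.01.

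Among the stress transcription factors only Ddit3 was called. Ddit3, which promotes cell death when stress lasts, ran from 2.03 through 5.97 to 11.6 CPM on 10% fat and from 3.04 through 6.49 to 11.9 on 44% fat, a log2 difference of 0.09 ± 0.03 (adjusted p = 0.00421). Atf4 had medians of 89.4 CPM on 10% fat (57.4 to 138) and 89.6 on 44% fat (53.97 to 159), and its log2 difference had a 95% interval of -0.03 to 0.03 (adjusted p = 0.987). The chaperone Hspa5 was not called either, with medians of 152 CPM (98.7 to 279) and 151 CPM (74.3 to 373) and an interval of -0.05 to 0.03 (adjusted p = 0.747).

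Both feedback genes rose. Sesn2, which restrains the growth kinase complex mTORC1 when leucine is short, ran from 1.21 through 2.41 to 4.36 CPM on 10% fat and from 1.42 through 2.59 to 4.68 on 44% fat, a log2 difference of 0.11 ± 0.03 (adjusted p = 0.00208). Trib3, a pseudokinase that binds AKT and restrains ATF4, ran from 0.0481 through 0.703 to 2.51 CPM and from 0.146 through 0.795 to 1.97 CPM, a log2 difference of 0.16 ± 0.05 (adjusted p = 0.0203). Each had a higher mean on 44% fat within 15 of 20 strains. In the lower identifier range alone 3 of the 5 kept their call (Psat1 0.20, Phgdh 0.22 and Sesn2 0.12), and in the 69 libraries of the upper range 1 did (Psat1 0.40, adjusted p = 0.0350), while Phgdh there was 0.21 (adjusted p = 0.577), Trib3 0.36 (adjusted p = 0.2003), Ddit3 0.19 (adjusted p = 0.214) and Sesn2 0.01 (adjusted p = 0.985). Median adipocyte sums were 191 CPM on 10% fat and 190 CPM on 44% fat, and with that sum as a term the differences were 0.22 for Psat1 and 0.18 for Phgdh, and Asns was called lower (-0.12, adjusted p = 0.0155), which gave 5 higher and 1 lower. Without the 19 libraries that went against their labels the count was again 5.

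**Figure D2:**
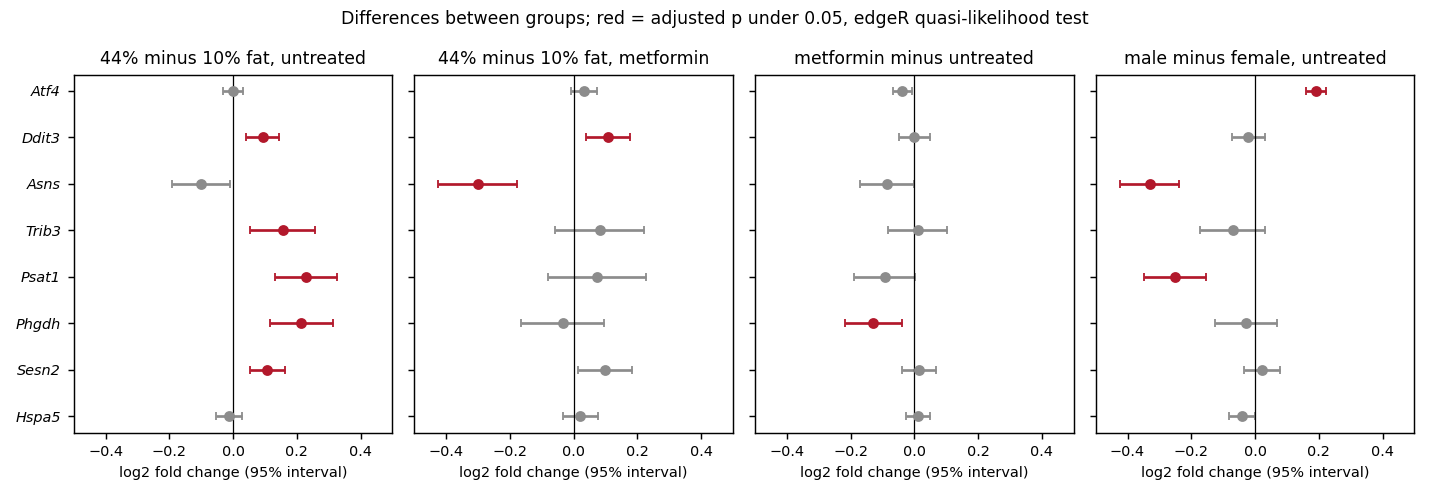
Log2 differences of the 8 genes from the edgeR fits with 95% intervals, in 4 panels for diet in untreated animals, diet in metformin animals, metformin and sex, in red where the adjusted p was under 0.05. Psat1 and Phgdh had the largest positive differences for diet (0.23 and 0.21), and Asns the largest negative ones for sex (-0.33) and for diet in metformin animals (-0.30).

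The same diet contrast among the metformin animals called 2 of the 8 genes, where 10.5% of the 16418 genes tested were called, 4.82% higher and 5.73% lower. Asns was lower on 44% fat (log2 difference -0.30 ± 0.06, percent difference -18.9%, adjusted p = 0.000154), with values of 0.511, 1.95 and 12.8 CPM (lowest, median, highest) on 10% fat and 0.443, 1.78 and 8.02 CPM on 44% fat. Ddit3 was higher (0.11 ± 0.04, adjusted p = 0.0323), with 2.95, 6.03 and 12.3 CPM on 10% fat and 3.32, 6.39 and 11.2 CPM on 44% fat. Both genes overlapped between the diets, and mean Asns was lower on 44% fat within 15 of 20 strains. Psat1 and Phgdh were not called, with log2 differences of 0.07 ± 0.08 and -0.03 ± 0.07 (adjusted p = 0.654 and 0.830), although Psat1 was called higher without the libraries highest in adipocyte markers (0.19, adjusted p = 0.0207). Within the lower identifier range Asns stood at -0.23 (adjusted p = 0.132) and Ddit3 at 0.16 (adjusted p = 0.0261); within the upper range they stood at -0.32 (adjusted p = 0.0775) and 0.03 (adjusted p = 0.876).

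Whether the diet difference itself changed with the drug was tested as an interaction over all libraries. None of the 8 genes was called by edgeR, 3 (Asns, Psat1 and Phgdh) had an unadjusted p under 0.05, and limma voom called none with 2 under 0.05. Only 1 gene of 17740 (0.00564%) was called. The 3 interactions were -0.20 for Asns, -0.19 for Psat1 and -0.25 for Phgdh (adjusted p = 0.507, 0.628 and 0.448), each with a 95% interval below 0 (Phgdh -0.42 to -0.08) before adjustment for the number of genes. The diet differences of untreated and treated animals were therefore not shown to differ.

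Metformin, which inhibits complex I of the respiratory chain, was compared with no treatment across both diets. Of the 8 genes 1 was called, Phgdh, which was lower in metformin animals, and 16.3% of the 17740 genes tested were called, 7.02% higher and 9.23% lower. Phgdh ran from 0.535 through 2.22 to 9.84 CPM in the untreated libraries and from 0.748 through 2.15 to 21.9 CPM in the metformin libraries. Its log2 difference was -0.13 ± 0.05 (percent difference -8.52%, adjusted p = 0.0356), and the ranges overlapped. The call did not hold without the 19 libraries that went against their labels (-0.12, adjusted p = 0.0511) or in either identifier range alone (-0.13 and -0.12, adjusted p = 0.108 and 0.930). The median adipocyte sum was 191 CPM in untreated and 166 CPM in metformin libraries. With that sum as a term the Phgdh difference was -0.01 (adjusted p = 0.891), and without the 8 libraries highest in adipocyte markers it was -0.16 (adjusted p = 0.00252); both of these settings were chosen after seeing the data. Without those 8 libraries Psat1 (-0.16, adjusted p = 0.00389) and Atf4 (-0.04, adjusted p = 0.0458) were called as well.

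The other 7 genes were not called for metformin. Atf4 had a median of 89.4 CPM untreated (53.97 to 159) and 85.7 CPM with metformin (47.7 to 131), a log2 difference of -0.04 ± 0.01 (adjusted p = 0.0584). It was called lower in 5 of 14 alternatives, with differences from -0.04 with the adipocyte term (adjusted p = 0.0314) to -0.05 with no identifier range term (adjusted p = 0.00211) and -0.06 with total counts (adjusted p = 0.00947). Asns had a 95% interval of -0.17 to -0.00195 before adjustment (-0.09 ± 0.04, adjusted p = 0.161) and was called in the lower identifier range alone (-0.14, adjusted p = 0.0365). Psat1 had an interval of -0.19 to 0.00250 (-0.09 ± 0.05, adjusted p = 0.187). For the remaining 4 genes the 95% intervals lay around 0. They were -0.05 to 0.05 for Ddit3, -0.08 to 0.10 for Trib3, -0.04 to 0.07 for Sesn2 and -0.03 to 0.05 for Hspa5, with adjusted p between 0.766 and 0.998.

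Males and females differed in 3 of the 8 genes among untreated animals, beside 65.3% of all genes tested (29.5% higher and 35.8% lower in males). Atf4 was higher in males and the enzymes Asns and Psat1 were lower. Atf4 had a median of 85.9 CPM in 236 females (53.97 to 138) and 94.6 CPM in 233 males (54.3 to 159), a log2 difference of 0.19 ± 0.02 (14.2% higher, adjusted p = 1.19e-28), and its mean was higher in males within 20 of 20 strains. Asns had a median of 2.14 CPM in females (0.657 to 16.02) and 1.83 CPM in males (0.388 to 4.50), a log2 difference of -0.33 ± 0.05 (percent difference -20.5%, adjusted p = 3.24e-11), lower in males within 20 of 20 strains. Psat1 had medians of 1.95 CPM (0.454 to 8.55) and 1.59 CPM (0.375 to 5.65), a difference of -0.25 ± 0.05 (adjusted p = 1.74e-06), lower within 18 of 20 strains. The sexes overlapped in all 3 genes, but 21 of the 236 females lay above the highest male for Asns, 15 of them with CC042/GeniUncJ as a parent. That line was a parent of 73 of the 236 females.

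The remaining 5 genes were not called for sex. Hspa5 had medians of 156 CPM in females and 146 CPM in males and a log2 difference of -0.04 ± 0.02 (adjusted p = 0.0843), with a lower mean in males within 18 of 20 strains. It was called in 4 of 13 alternatives, at -0.05 with RLE factors (adjusted p = 0.0482) or DESeq2 (adjusted p = 0.0463), -0.06 among genes of at least 5 CPM (adjusted p = 0.0032) and -0.105 with total counts (adjusted p = 5.18e-05). These fits used TMM normalization factors, while the printed CPM and the means within strains did not. On the scale of those means the median Hspa5 difference within strains was -0.09. For Atf4 it was 0.12 (0.006 to 0.295 between strains), below the 0.19 of the fit. Scaling by total counts alone moved the median of all genes from -0.02 to -0.08, and the calls among the 8 genes from 1 higher and 2 lower to 1 higher and 5 lower. Atf4, Asns and Psat1 kept their directions under both scalings. The median adipocyte sum was 218 CPM in females and 160 CPM in males. With that sum as a term, Psat1 stood at -0.01 (adjusted p = 0.912), Asns at -0.11 (adjusted p = 0.0196) and Phgdh, -0.03 without the term, at 0.27 (adjusted p = 4.12e-11), Sesn2 was called at 0.08 (adjusted p = 0.0117), and the call for Atf4 was kept. No interaction of diet and sex was called among the 8 genes by edgeR (1 with an unadjusted p under 0.05, Hspa5; limma voom called none, 1 under 0.05), where 0.226% of all genes were called. None of metformin and sex was called either (1 under 0.05, Atf4, -0.07, adjusted p = 0.136; limma voom called none, 2 under 0.05), where 1.87% were called.

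Strain was tested with the same fit over 20 strains. All 8 genes differed between strains, with adjusted p from 1.72e-49 for Asns to 3.3e-05 for Sesn2, beside 93.3% of the genes tested. The share of variance of log2 CPM between strains (omega squared) set the members further apart. It was 38.9% for Asns, higher than that of 87.9% of all genes, and then 17.8% for Phgdh, 14.5% for Ddit3, 14.4% for Atf4, 11.7% for Hspa5, 9.34% for Psat1, 8.85% for Trib3 and 6.52% for Sesn2. The median gene had 12.9%. For diet the corresponding shares were at most 3.37% (Psat1), and for sex at most 8.24% (Atf4).

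Asns varied 3.30-fold between the means of untreated strains. The lowest was (CC051/TauUncJ x CC060/UncJ)F1, with 1.12 ± 0.431 CPM (SD, n = 24, 0.388 to 2.08), and (CC012/GeniUncJ x CC002/UncJ)F1 and (CC004/TauUncJ x CC019/TauUncJ)F1 followed at 1.36 ± 0.481 and 1.42 ± 0.468 CPM. The highest was (CC043/GeniUncJ x CC042/GeniUncJ)F1, with 3.68 ± 2.31 CPM (n = 25, 1.89 to 9.62), after (CC042/GeniUncJ x CC040/TauUncJ)F1 at 3.34 ± 3.09 and (CC001/UncJ x CC042/GeniUncJ)F1 at 3.14 ± 1.07 CPM. Even these extremes overlapped, and each of the 19 pairs of neighbours in the order lay within their SDs. The 5 highest means all belonged to strains with CC042/GeniUncJ as a parent, and the sixth such strain, (CC042/GeniUncJ x CC060/UncJ)F1, stood 13th of 20 with 2.30 ± 0.341 CPM. By median (CC019/TauUncJ x CC042/GeniUncJ)F1 stood lower, at 2.26 CPM. That lay below the medians of (CC043/GeniUncJ x CC011/UncJ)F1 (2.46 CPM), (CC002/UncJ x CC043/GeniUncJ)F1 (2.31), (CC002/UncJ x CC075/UncJ)F1 (2.30) and (CC042/GeniUncJ x CC060/UncJ)F1 (2.27). A single library at 16.02 CPM raised the mean of (CC042/GeniUncJ x CC040/TauUncJ)F1, whose median was 2.47 CPM. Median macrophage sums of untreated libraries ran from 47.3 to 59.7 CPM in the 6 strains with this parent and from 37.4 to 61.7 CPM in the others. Median adipocyte sums ran from 166 to 238 CPM and from 136 to 276 CPM. Their part in the order was not tested. The order itself was seen in the values and was not tested. For Atf4, by contrast, (CC042/GeniUncJ x CC060/UncJ)F1 was lowest of all at 82.5 ± 11.5 CPM.

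**Figure D3:**
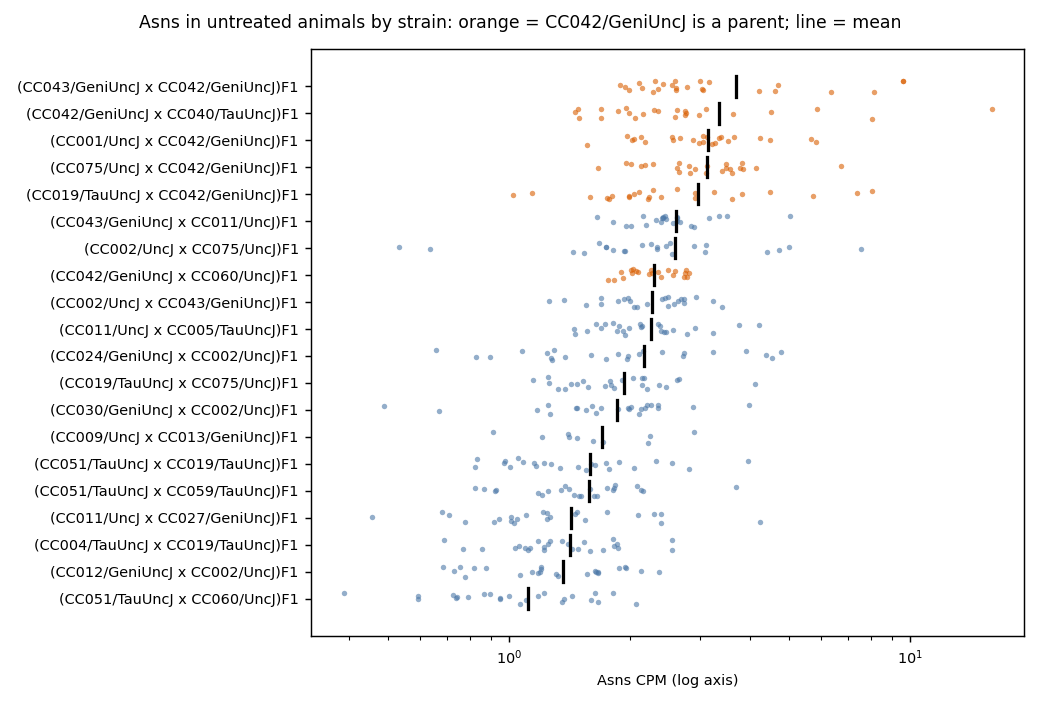
Asns CPM (log axis) of the untreated libraries in each of the 20 strains, ordered by mean, with strains that have CC042/GeniUncJ as a parent in orange and the strain mean as a line. The means run from 1.12 to 3.68 CPM in small steps, and the orange strains fill the 5 highest places.

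Other strains stood at the ends for the other genes. (CC009/UncJ x CC013/GeniUncJ)F1, with 10 untreated libraries, was highest for Atf4 (110 ± 14.3 CPM), Ddit3 (7.92 ± 1.32) and Trib3 (1.07 ± 0.307). All 10 were in the upper identifier range, and strain means were not adjusted for range, so strain and range cannot be told apart in these values. The strain (CC051/TauUncJ x CC019/TauUncJ)F1 was lowest for Ddit3 (5.32 ± 1.53 CPM) and Trib3 (0.549 ± 0.209) and highest for Sesn2 (2.95 ± 0.646). The strain (CC019/TauUncJ x CC042/GeniUncJ)F1 was highest for Psat1 (3.05 ± 1.61 CPM), Phgdh (3.34 ± 1.91) and Hspa5 (194 ± 67.8), with a median adipocyte sum of 238 CPM. The ratio of the highest to the lowest strain mean was 2.42 for Psat1, 2.14 for Phgdh, 1.94 for Trib3 and between 1.34 and 1.49 for Atf4, Ddit3, Sesn2 and Hspa5. Neighbouring strains lay within their SDs in 19 of 19 pairs for every gene but Psat1, where 18 did, and the lowest and highest strains overlapped for all 8 genes.

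The diet difference depended on strain for 1 of the 8 genes, Phgdh (edgeR, adjusted p = 0.0493), beside 3.27% of all genes. In (CC019/TauUncJ x CC042/GeniUncJ)F1 it ran from 0.909 through 2.09 to 3.07 CPM in 12 libraries on 10% fat and from 2.45 through 3.96 to 8.24 CPM in 12 on 44% fat, a difference of mean log2 CPM of 1.17 ± 0.21 (SE). The adipocyte sums of these groups were 75.1, 217 and 318 CPM and 219, 304 and 1027 CPM. In (CC009/UncJ x CC013/GeniUncJ)F1 the Phgdh difference was -0.23 ± 0.31. The call did not hold with limma voom, in either identifier range alone, without the libraries highest in hepatocyte markers, or with either adipocyte setting.

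The metformin difference depended on strain for 4 of the 8 genes, Psat1 (adjusted p = 3.45e-05), Hspa5 (0.0374), Ddit3 (0.0452) and Atf4 (0.0467, all by edgeR), beside 8.95% of all genes. Several members were higher with metformin in animals of the strain (CC043/GeniUncJ x CC042/GeniUncJ)F1. Median sums of adipocyte markers in that strain were 166 CPM untreated and 206 CPM with metformin, and of hepatocyte markers 2.08 and 19.8 CPM; their part in the differences was not tested. Hspa5 there ran from 115.9 through 142 to 301 CPM in 25 untreated libraries and from 156 through 223 to 343 CPM in 12 with metformin, a difference of mean log2 CPM of 0.52 ± 0.14. Psat1 there ran from 0.723 through 1.501 to 4.18 CPM and from 1.40 through 2.31 to 5.87 CPM (0.63 ± 0.24), and Asns from 1.89 through 2.61 to 9.62 and from 2.36 through 4.32 to 12.8 CPM (0.62 ± 0.28). Of those libraries 24 of the 25 untreated were in the lower identifier range and 9 of the 12 treated in the upper one, so that treatment and range cannot be told apart in that strain. In (CC011/UncJ x CC027/GeniUncJ)F1 the enzymes were lower with metformin, by differences of -0.62 ± 0.25 for Psat1, -0.58 ± 0.19 for Phgdh and -0.46 ± 0.20 for Asns, beside median adipocyte sums of 136 CPM untreated and 101.3 CPM treated. Ddit3 was lowest relative to untreated in (CC011/UncJ x CC005/TauUncJ)F1 (-0.33 ± 0.11) and Atf4 in (CC009/UncJ x CC013/GeniUncJ)F1 (-0.21 ± 0.09). All 26 untreated libraries of (CC011/UncJ x CC005/TauUncJ)F1 were in the lower identifier range and 8 of its 12 treated ones in the upper. Most treated libraries of that strain therefore differed from the untreated in range as well. Limma voom called none of the 8 genes (6 with an unadjusted p under 0.05), the lower range alone 2, the upper range alone none (0 under 0.05), and the fit with the adipocyte sum as a term 1.

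**Figure D4:**
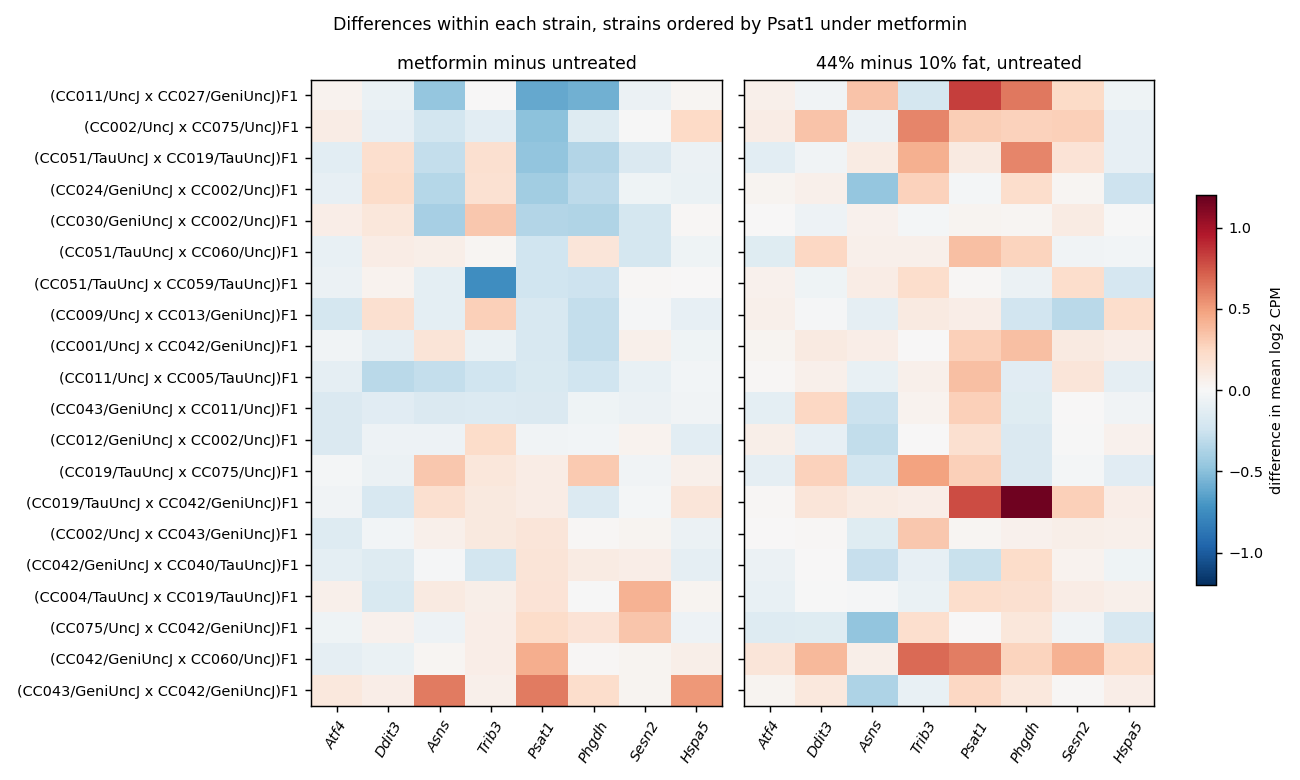
Heat maps of the difference of mean log2 CPM within each of the 20 strains (listed down the side) for the 8 genes (along the base), for metformin minus untreated and for 44% minus 10% fat in untreated animals, red where positive and blue where negative. Psat1 under metformin runs from -0.62 to 0.63 between strains, and the darkest red cell for diet is Phgdh in (CC019/TauUncJ x CC042/GeniUncJ)F1 at 1.17.

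Correlations between the members from library to library ranged widely. After strain, sex, diet, treatment and identifier range were taken out, the highest residual Pearson correlations of log2 CPM among the 8 genes over the 544 libraries of the lower and 159 of the upper range were 0.599 for Asns with Psat1, 0.598 for Psat1 with Phgdh, 0.596 for Atf4 with Hspa5 and 0.584 for Asns with Phgdh. Atf4 itself correlated at 0.295 with Asns, 0.182 with Psat1, 0.165 with Phgdh, 0.180 with Trib3 and 0.212 with Ddit3, all below its median of 0.324 with the other genes compared. The median for Ddit3 was 0.203, and 5 of its 7 correlations with members lay below it. These are descriptions: the points share libraries, depth and tissue composition.

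The genes most like each member in those residuals differed between the roles. Hspa5 had the highest likeness, with Hsp90b1 (0.879), Hyou1 (0.863) and Pdia6 (0.854), which encode other chaperones and a folding enzyme of the endoplasmic reticulum. Atf4 was most like Phb2 (0.737), Gars (0.732), which encodes glycyl-tRNA synthetase, and Rnps1 (0.724). Phgdh was most like Sncg (0.740) and the adipocyte genes Plin1 (0.724) and Adipoq (0.722), and Psat1 most like Aoc3 (0.636), Eef1a1 (0.626) and Epb41l1 (0.625). Asns was most like Tuba1b (0.671), Anxa2 (0.654) and Ywhab (0.643). Values were lower for Ddit3 (P2ry2 0.495, Exd2 0.468, Dusp27 0.462), Sesn2 (Itm2b 0.474, Ctsz 0.460) and Trib3 (Ccni 0.349, Ldb1 0.346, C130074G19Rik 0.339). The median correlation of a member with the other genes compared lay between 0.155 (Trib3) and 0.324 (Atf4).

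The 3 amino acid enzymes followed the adipocyte marker sum across libraries. Their residual correlations with it were 0.716 for Phgdh, 0.629 for Psat1 and 0.606 for Asns, beside 0.365 for Sesn2, 0.250 for Trib3, 0.234 for Hspa5, 0.184 for Atf4 and 0.135 for Ddit3. The enzymes also followed other cell markers, at 0.473 (Psat1), 0.456 (Phgdh) and 0.409 (Asns) with summed macrophage markers. With the fibroblast sum they stood at 0.406 (Psat1), 0.389 (Phgdh) and 0.347 (Asns). Ddit3 correlated at 0.329 with summed endothelial markers. Atf4 correlated at 0.544 with the muscle fibre sum. All 6 adipocyte markers were present in the table, with a median sum of 183 CPM. The part of adipose tissue in the levels of these enzymes was not tested beyond the fits given above.

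**Figure D5:**
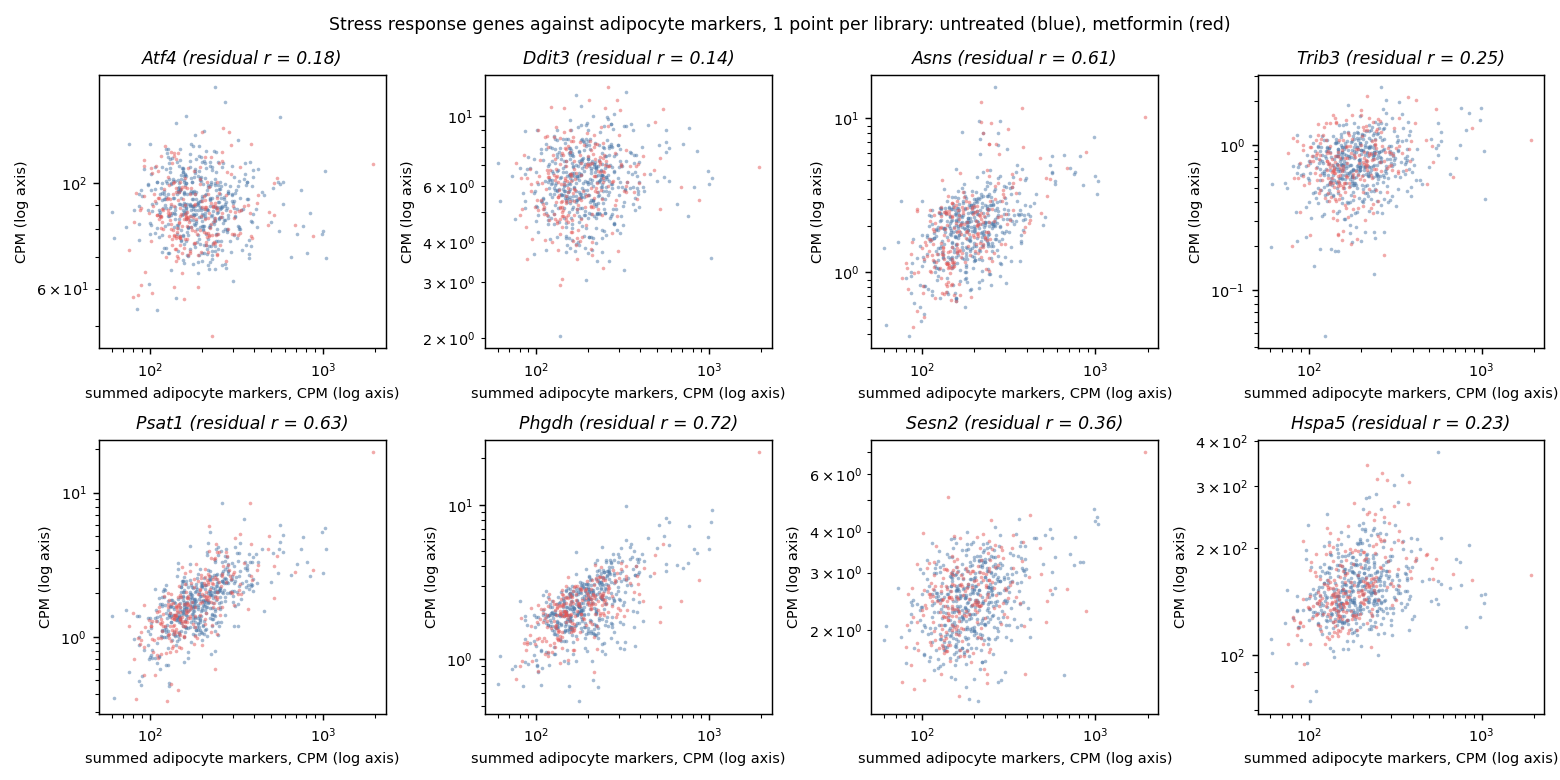
CPM of the 8 genes against the summed CPM of 6 adipocyte markers (both log axes), 1 point a library, untreated in blue and metformin in red, with the residual correlation above each panel. Phgdh, Psat1 and Asns are higher in libraries with a higher marker sum (r = 0.72, 0.63 and 0.61), and Ddit3 shows the weakest relation (0.14).

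The wider pathway was described with 75 other genes in 6 lists, of which 73 were in the table and 70 entered the fits. The diet test called 20 of these 70, 10 higher and 10 lower, beside 18.4% of all genes (9.56% higher and 8.83% lower). The list of serine, one-carbon and proline enzymes beyond the members had 8 genes, of which 5 fell and none rose, with a median log2 difference of -0.14 (all genes -0.00239). Those that fell were Aldh1l2 (-0.23 ± 0.03, adjusted p = 4.04e-10), Pycr1 (-0.22 ± 0.03, adjusted p = 1.18e-09), Aldh18a1 (-0.21 ± 0.04, adjusted p = 1.01e-05), Mthfd2 (-0.18 ± 0.05, adjusted p = 0.00234) and Shmt1 (-0.10 ± 0.03, adjusted p = 0.00139), which encode mitochondrial and cytosolic folate enzymes and enzymes of proline synthesis. Phgdh and Psat1, which head serine synthesis, rose on the same diet. Of 10 other tested transcription factors and feedback genes 3 rose and none fell. Those that rose included Ddit4 (0.36 ± 0.12, adjusted p = 0.0217), an inhibitor of mTORC1, and Nupr1 (0.11 ± 0.03, adjusted p = 0.00585). Of 8 amino acid transporters 1 rose, Slc6a9, which carries glycine (0.09 ± 0.03, adjusted p = 0.0251). Of 19 chaperones and folding genes of the endoplasmic reticulum 2 rose and 3 fell, of 12 tRNA synthetases 1 rose and 1 fell, and of 13 genes of the eIF2 kinases, eIF2B and the eIF2 phosphatase 3 rose and 1 fell.

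For sex 56 of the 70 were called, 20 higher and 36 lower in males, beside 65.3% of all genes. Chac1, which degrades glutathione, was the most different (1.14 ± 0.09, adjusted p = 2.06e-31), followed among those higher by the transporters Slc38a2 (0.51 ± 0.04, adjusted p = 6.93e-30) and Slc7a11 (0.49 ± 0.13, adjusted p = 0.000239). Slc6a9 (-0.71 ± 0.03, adjusted p = 9.57e-74), Sesn1 (-0.67 ± 0.02, adjusted p = 7.16e-104) and Xbp1 (-0.55 ± 0.02, adjusted p = 2.15e-90) were lower in males. Of the 19 endoplasmic reticulum genes 14 were lower and 2 higher, and of the 12 tRNA synthetases 7 were higher and 3 lower. For metformin 10 of the 70 were called, 2 higher and 8 lower, a share near the 16.3% of all genes. Ddit4 had the largest negative difference by the edgeR fit (-0.75 ± 0.11, adjusted p = 1.6e-08). Its median was 2.91 CPM untreated (mean 5.82, highest 97.7) and 2.29 CPM with metformin (mean 3.01, highest 33.4). The means lay above the medians because of a few high libraries. The folate enzyme Mthfd1l (-0.21 ± 0.07, adjusted p = 0.0135) and the transcription factor Cebpb (-0.17 ± 0.06, adjusted p = 0.0257) followed. The stress sensor Atf6 (0.06 ± 0.01, adjusted p = 0.000153) and the synthetase Lars (0.03 ± 0.01, adjusted p = 0.0401) were higher in metformin animals. All 70 differed between strains, beside 93.3% of all genes. The largest shares of variance were those of Aldh1l2 (61.7%), Psph (48.2%) and the transcription factor Atf5 (45%). Psph encodes the phosphoserine phosphatase that follows Psat1 in the pathway.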

How the data were processed

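Gastrocnemius RNA was sequenced in reads of 100 bp. The authors aligned reads as single ends, with both mates combined, to a transcriptome of the 8 founder strains with EMASE and GBRS, and deposited estimated counts per gene as whole numbers after their own filter on genes; the notes of the submitters name GRCm38 and DESeq2. Of the 19088 gene identifiers, 19003 occur in GENCODE M21, and 80.5% of those have the same start and end there. Deposited variance-stabilised values were not used.

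Here the counts were tested as deposited with edgeR 4.0.16 in R 4.3.3 (TMM factors, filterByExpr, quasi-likelihood F tests), with Benjamini-Hochberg adjustment over all genes tested and a threshold of 0.05. The dispersion trend was estimated on every 6th gene by abundance and interpolated. Terms were strain, sex, diet and identifier range, and treatment where both treatments entered. Diet, sex, strain and their interactions used the untreated libraries, metformin and its interactions all libraries, and the diet contrast of treated animals the metformin libraries. CPM, differences within strains and shares of variance were computed in python 3.11.15 with pandas 2.3.3 and scipy 1.17.1. The differences and shares used log2 CPM with a prior count of 2 and no normalization factors. Alternatives used limma 3.58.1 and DESeq2 1.42.0. Every library carries the label rep1, so libraries of one group were taken as separate samples, and p-values measure the spread between them. Counting error bears most on Trib3, which had the fewest counts.

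The 8 members, the pathway lists and the marker lists were chosen with earlier results of these data known. The members were named whatever their values; of the other pathway genes, the called genes with the 3 highest and 3 lowest log2 differences were named for diet, sex and metformin, and the 3 with the highest share of variance for strain. Mthfd2 and Shmt1 were added after their values were seen. For each member the 3 genes with the highest residual correlation were named, except that 1 gene is not reported here. The script was tested on simulated data.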

Additional observations from a re-analysis of the deposited data

Results flagged for a closer look

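The difference between diets varied with strain for Phgdh (edgeR's quasi-likelihood interaction test, adjusted p = 0.0493, over the untreated libraries). Mean Phgdh was higher on 44% fat in 14 of 20 strains, by log2 differences from -0.23 to 1.17. The highest adipocyte sums of the strain at the upper end, (CC019/TauUncJ x CC042/GeniUncJ)F1, were 318 CPM on 10% fat and 1027 CPM on 44% fat. Their part in the difference was not tested.

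The metformin difference varied with strain for Psat1 (adjusted p = 3.45e-05), Hspa5 (adjusted p = 0.0374), Ddit3 (adjusted p = 0.0452) and Atf4 (adjusted p = 0.0467), by the same edgeR test over all libraries. Psat1 ranged from -0.62 in (CC011/UncJ x CC027/GeniUncJ)F1 up to 0.63 on the log2 scale, the latter in animals of (CC043/GeniUncJ x CC042/GeniUncJ)F1, Hspa5 from -0.13 to 0.52, Ddit3 from -0.33 to 0.22 and Atf4 from -0.21 to 0.13. These differences within strains had no term for identifier range. For Psat1 the adjusted p was 0.000438 in the lower identifier range alone and 0.834 in the upper one, 0.142 with limma voom, 0.452 with the adipocyte marker sum as a term and 0.0722 without the libraries highest in adipocyte markers. Among its alternatives it was lowest, 2.27e-05, without the 19 libraries against their labels.

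In groups of one strain and treatment with 4 to 10 libraries, 3 of the 16 combinations of group and gene held a library far from the others by Dixon's test (18.8%). For independent, normally distributed values chance gives about 1 in 20. These groups pooled sexes and diets and the genes shared libraries, so the 2 rates cannot be compared. In the 7 metformin libraries of (CC004/TauUncJ x CC019/TauUncJ)F1 the highest Ddit3 value was 8.35 CPM with the next at 5.81, and the highest Asns value was 2.20 CPM with the next at 1.54. In the 10 untreated libraries of (CC009/UncJ x CC013/GeniUncJ)F1 the highest Atf4 value was 148 CPM with the next at 112.6.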

How the results depend on the processing

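Of the 133 alternative counts of called genes, 27 were lower and 3 higher than the reported count by over 1.5 times, and the others were not. Of 396 alternative differences of single members, 336 kept direction and call, 18 lost the call, 16 gained it and 26 changed sign. In the upper identifier range alone the genes called numbered 1 for diet, 0 for metformin, 0 for diet in metformin animals, 0 for diet by strain and 0 for metformin by strain, and among the other pathway genes 1 for diet, 32 for sex and 0 for metformin; the range holds 159 libraries. In the lower range alone they numbered 3 for diet, 1 for diet in metformin animals, 0 for diet by strain and 2 for metformin by strain. Where only genes with a mean of at least 5 CPM were kept, 3 members remained to be tested, and 1 was called for diet, 3 for strain and 1 for diet in metformin animals. With limma voom 0 were called for diet by strain and 0 for metformin by strain. Without libraries against their labels 0 were called for metformin, and without those highest in hepatocyte markers 0 for diet by strain and 2 for metformin by strain. The following 3 settings were chosen after seeing the data. With total counts and no normalization factors 6 were called for sex, 2 for metformin and 1 for diet in metformin animals, and 12 other pathway genes for diet. With the adipocyte sum as a term 0 were called for diet by strain and 1 for metformin by strain, and 4 other pathway genes for metformin. Without the libraries highest in adipocyte markers 3 were called for metformin, 0 for diet by strain and 2 for metformin by strain. The cause of these changes was not tested.

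Signs changed in differences that were not called. For diet these were Atf4 (0.00025 in the lower range, 0.00101 with the adipocyte term) and Hspa5 (0.0531 in the upper range). For sex they were Ddit3 (0.0771) and Phgdh (0.0787) in the upper range, Sesn2 (-0.0425) with total counts and Trib3 (0.0248) with the adipocyte term; Phgdh with that term was the exception, at 0.273 and called (adjusted p = 4.12e-11). For metformin, Ddit3 was -0.00132 with no filter, -0.00938 in the lower range, -0.0182 with no range term, -0.000545 with cells of strain, sex and diet as terms, -0.0228 with total counts and -0.00663 with the adipocyte term. Trib3 was -0.0276 in the lower range and -0.00503 with total counts, Asns 0.00471 in the upper range and 0.00292 with the adipocyte term, Sesn2 -0.0765 in the upper range and -0.00433 with total counts, and Hspa5 -0.0114 with total counts. For diet in metformin animals, Atf4 was -0.0165 and Phgdh 0.0895 in the upper range, Hspa5 -0.00134 with total counts, and Phgdh 0.0164 with the adipocyte term and 0.0417 without the libraries highest in those markers. The planned fit to the deposited variance-stabilised values was not run. No paired analysis was possible because every library carries the same replicate number. Depth limits Trib3 most, with a median of 36 counts.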
